A study of Mus musculus with 64 samples.

Results

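The 8 enzymes described here make and break down proline, arginine and the polyamines: Aldh18a1 and Pycr1, which build proline, Prodh, which degrades it, Oat, which joins proline and ornithine, Ass1, Asl and Arg2 of the arginine cycle, and Odc1, which opens polyamine synthesis. They were taken by symbol from a fixed list with no cut on a measured value, though the list was chosen with earlier results of these data known. They are 8 of the 39017 genes in the deposited count table. All 8 were found there, all 8 could be tested on counts summed by line and culture, and 7 passed the filter on low counts across single libraries, where Arg2 did not. Expression was measured by sequencing of polyadenylated RNA in 8 mouse pancreatic ductal adenocarcinoma (PDA) lines, each sequenced 4 times in mono-culture and 4 times after 48 h of direct coculture with fibroblasts, from which the tumor cells were sorted by their own green fluorescent protein, giving 64 libraries. The 7 lettered clones were subcloned from a single tumor line of a genetically engineered mouse, which carries mutant Trp53 (R172H), with Cre driven by the pancreatic Pdx1 promoter, so that these groups share this origin and each lettered line is 1 clone. KPC1 is a further line, which the series text counts among the sub-clones but whose tumor of origin is not given in the sources used here. The study placed clones E, H and V in group 1 and clones K, M, N and T in group 2 by their metabolite pools, and KPC1 in neither. The strain background was given as C57BL/6 mixed for every library, and age does not apply to cultured lines. Nothing in the labels says whether the 4 libraries of a group came from separate cultures, nor whether the mono-cultures passed through the sorter, so p-values below measure the spread between these libraries or lines.

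Proline is made from glutamate in the mitochondrion. Aldh18a1, the pyrroline carboxylate synthase, reduces glutamate to an intermediate that Pycr1, a pyrroline carboxylate reductase, turns into proline, while Prodh, proline dehydrogenase, runs the reverse way and feeds electrons to the respiratory chain. Oat, ornithine aminotransferase, links the same intermediate to ornithine, which the cell also obtains from arginine through arginase, here the mitochondrial Arg2. Ass1 and Asl, argininosuccinate synthase and lyase, rebuild arginine from citrulline and aspartate, and loss of Ass1 makes many tumors dependent on arginine from outside. Odc1, ornithine decarboxylase, converts ornithine to putrescine, the first polyamine, and is a well-known target of Myc. Proline and its synthesis are of interest in PDA because collagen from the fibrotic stroma is rich in proline.

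The depth of the libraries lay between 11178721 and 21333683 counts (median 15648010), and every library was most highly correlated with a library of its own line and culture. Levels are given in CPM, counts scaled to a common library total after TMM normalization. Of the 8 markers of pancreatic tumor epithelium, Krt8, Krt18, Krt19 and Sox9 were high in every line, Epcam was near 0 in all of them, with line means of at most 0.370 CPM, and Cdh1 ran from 0.998 CPM in mono-cultured clone M to 304 CPM in mono-cultured clone V. Fibroblast transcripts accompanied the coculture: the summed level of 12 fibroblast markers was between 48.3 and 257 CPM in the mono-culture libraries, where 4 or 5 of the 12 were at 0 in each line, and between 229 and 1942 CPM in the coculture libraries, where none was. Thy1 had no count in any mono-culture library and line means of 5.98 to 16.1 CPM in coculture. Of the 5 leukocyte markers only Cd68 reached 1 CPM in any line and culture, at 3.96 to 18.4 CPM in the mono-culture sums and 11.7 to 41.8 CPM in coculture, while Ptprc had at most 7 counts in any sum and Csf1r at most 30. In such bulk libraries, fewer cells of a type and less RNA per cell cannot be told apart, and apart from the values given beside Ass1 below, the part of these transcripts in the changes below was not tested.

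The sequences upstream of Pycr1 and Aldh18a1 are shown because these genes had the most similar pattern of any pair of the 7 tested enzymes, that of Odc1 because it followed them, and that of Ass1 because it was close to silent in the mono-cultures of most lines. Each is a window of 300 bases that ends just past the RefSeq start site on GRCm38.p6, read on the gene's own strand. Capitals mark matches to either of 2 motifs searched on both strands, TGATGNAA, the core of the amino acid response element bound by ATF4 with C/EBP proteins, and CACGTG, the E-box bound by Myc and related factors; the motifs do not overlap one another in these windows.
Pycr1 (chr11:120643699-120643998, minus strand): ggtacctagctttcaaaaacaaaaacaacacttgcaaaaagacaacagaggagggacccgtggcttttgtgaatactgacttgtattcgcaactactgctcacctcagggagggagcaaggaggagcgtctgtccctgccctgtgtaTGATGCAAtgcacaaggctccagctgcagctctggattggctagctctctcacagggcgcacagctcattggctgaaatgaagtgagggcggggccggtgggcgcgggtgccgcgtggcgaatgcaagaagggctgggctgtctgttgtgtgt
Aldh18a1 (chr19:40588414-40588713, minus strand): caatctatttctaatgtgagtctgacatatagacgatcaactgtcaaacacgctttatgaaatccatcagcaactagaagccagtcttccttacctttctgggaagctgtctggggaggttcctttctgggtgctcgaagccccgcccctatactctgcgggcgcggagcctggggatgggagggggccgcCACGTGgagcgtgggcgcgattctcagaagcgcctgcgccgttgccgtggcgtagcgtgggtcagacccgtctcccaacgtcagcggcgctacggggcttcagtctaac
Odc1 (chr12:17544623-17544922, plus strand): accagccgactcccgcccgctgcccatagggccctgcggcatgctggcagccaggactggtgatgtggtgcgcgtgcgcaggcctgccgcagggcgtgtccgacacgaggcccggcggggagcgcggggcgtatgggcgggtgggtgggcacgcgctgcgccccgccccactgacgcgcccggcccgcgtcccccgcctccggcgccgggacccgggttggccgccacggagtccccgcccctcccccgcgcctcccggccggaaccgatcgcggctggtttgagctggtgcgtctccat
Ass1 (chr2:31470020-31470319, plus strand): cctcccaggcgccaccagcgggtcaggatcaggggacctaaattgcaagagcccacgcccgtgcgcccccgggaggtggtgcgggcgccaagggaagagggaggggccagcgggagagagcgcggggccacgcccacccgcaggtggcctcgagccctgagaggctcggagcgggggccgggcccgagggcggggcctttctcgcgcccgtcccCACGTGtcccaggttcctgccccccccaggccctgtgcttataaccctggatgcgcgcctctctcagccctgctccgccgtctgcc
The Pycr1 window held 1 match, TGATGCAA, whose first base lies at -103 from the start site. The Aldh18a1 and Ass1 windows each held 1 E-box, starting at -59 and -36. Among all 32851 mouse promoter windows of the same length, 3.97% held TGATGNAA and 7.15% held CACGTG, and neither motif was found in the windows of Odc1, Prodh or Oat. A match is a run of letters and does not show that a factor binds there.

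In the GENCODE annotation of the same build, which the mm10 named in the submitters' processing notes corresponds to, Pycr1 (ENSMUSG00000025140) spans chr11:120635712-120643769 and Aldh18a1 (ENSMUSG00000025007) spans chr19:40550257-40588463, both on the minus strand. Prodh (ENSMUSG00000003526) lies at chr16:18060357-18090203, Oat (ENSMUSG00000030934) at chr7:132557478-132576398 and Asl (ENSMUSG00000025533) at chr5:130011258-130029247, also on the minus strand. Ass1 (ENSMUSG00000076441) lies at chr2:31470207-31520672, Arg2 (ENSMUSG00000021125) at chr12:79130777-79156301 and Odc1 (ENSMUSG00000011179) at chr12:17544794-17551505, on the plus strand. All 8 are protein-coding, and the counts are per gene. Only Arg2 shares exonic bases with other genes: 116 of its 1428 exonic bases lie opposite exons of the antisense gene Gm48780 and 285 opposite exons of Vti1b, which had 43326 counts over the 64 libraries against 227 for Arg2. The libraries were prepared with a strand-specific kit, but the strand setting of the counting is not given in the sources used here, so Arg2 counts are uncertain.

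Aldh18a1, Pycr1 and Odc1 were higher in coculture in most lines, whereas Oat and Asl did not pass over the lines. Over the 8 lines, tested on 16 sums of 4 libraries with the line as a covariate, 5 of the 8 enzymes rose and none fell, whereas 54.6% of the 14478 genes tested changed, 27.2% upward and 27.4% downward. Aldh18a1 rose by 1.31 ± 0.17 on the log2 scale (SE, adjusted p = 0.0011), Pycr1 by 1.12 ± 0.19 (adjusted p = 0.00252) and Odc1 by 0.72 ± 0.14 (adjusted p = 0.00384). Prodh rose less, by 0.29 ± 0.10 (adjusted p = 0.032). Ass1 also rose, from near-zero counts, with a fitted change of 3.38 ± 0.64 (adjusted p = 0.00341) that depends on the prior count. Asl, at 0.11 ± 0.08 (adjusted p = 0.306), Oat, at -0.03 ± 0.07 (adjusted p = 0.738), and Arg2, at 0.65 ± 0.31 (adjusted p = 0.111), did not pass. The median log2 change was 0.68 over the 8 enzymes and -0.000892 over all genes tested.

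Within single lines, tested on the 64 libraries together, between 3 and 6 of the 7 enzymes tested were called in each line, in either direction. Clone E had 6 higher and none lower, while 61.3% of all genes were called there, 32.1% higher and 29.2% lower. Clone T had 5 higher and 1 lower, Oat, with 62.2% of all genes called (31.5% higher, 30.7% lower). Clone V had 4 higher and none lower, with 61.5% called (30% higher, 31.5% lower), and clone M the same number, with 38.9% called (21.6% higher, 17.3% lower). Clones N and K also had 4 higher and none lower, with 37.4% of all genes called in N (20% higher, 17.4% lower) and 20.5% in K (12.5% higher, 8.02% lower). Clone H had 3 higher and none lower, with 44% called (21.4% higher, 22.6% lower), and KPC1 had 3 higher and 1 lower, Asl, with 39.2% called (20.1% higher, 19% lower). Aldh18a1 was called in all 8 lines, Pycr1 and Ass1 in 7, Odc1 in 5, Asl in 4, 3 of them upward, and Prodh and Oat in 2.

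**Figure D1:**
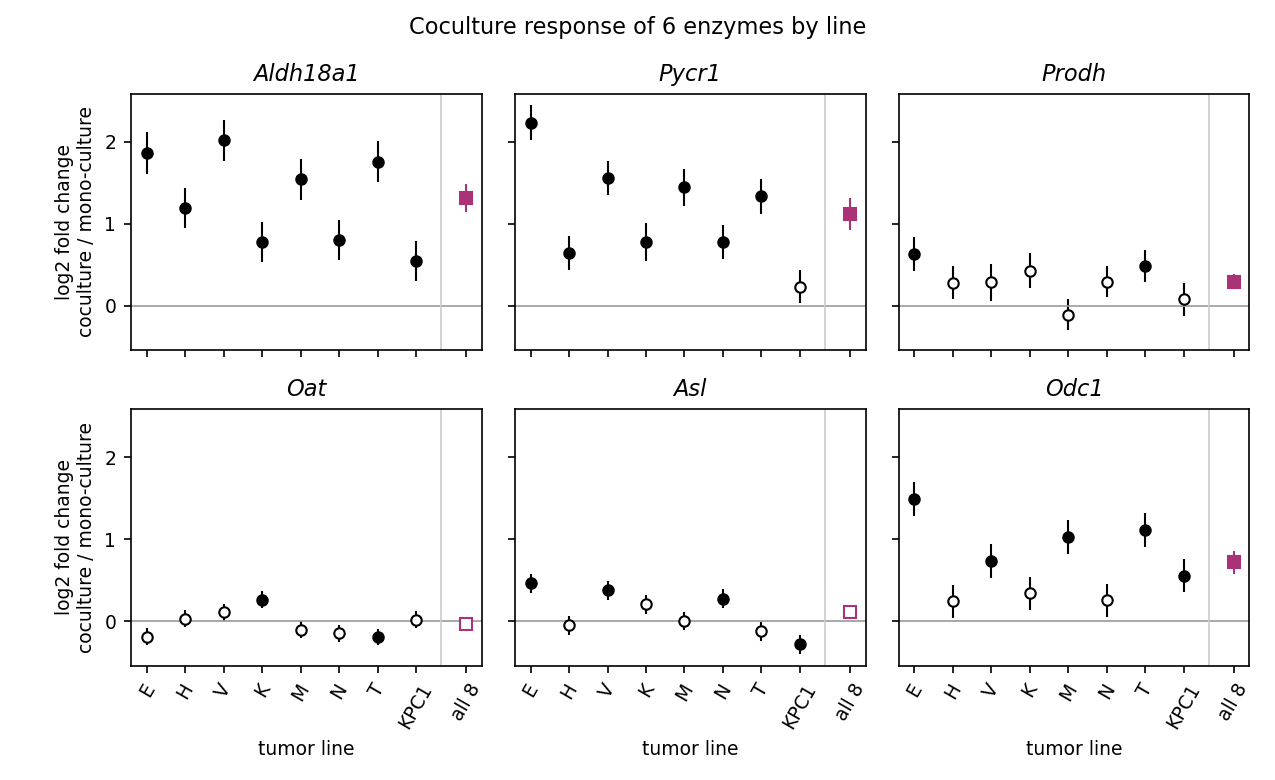
Log2 fold change between coculture and mono-culture (vertical axis) of 6 enzymes in each tumor line, from the edgeR quasi-likelihood test on 64 libraries (circles, 4 libraries per culture), and over the 8 lines from 16 summed samples (squares); bars are SE and filled symbols have an adjusted p under 0.1. Aldh18a1 lies above 0 in every line and Pycr1 passes in every line but KPC1, whereas Oat stays between -0.20 and 0.26.

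Pycr1, the last step of proline synthesis, varied 6.55-fold over the lines in mono-culture, from 5.69 CPM in clone M to 37.3 CPM in KPC1. Its order from low to high was M, K, E, T, V, H, N and KPC1. The lines differed (adjusted p = 8.26e-17, edgeR quasi-likelihood F-test over the 8 lines), as did 95.1% of the 14134 genes tested. This share, and the median of 59.6% over pairs of lines given next, apply equally to the same tests of the enzymes below. Of the 28 pairs of lines 20 differed, against a median of 59.6% of all genes over the pairs, and of the 7 pairs of neighbors 2 did: clone E was above clone K by 1.15 on the log2 scale (adjusted p = 2.29e-05) and KPC1 above clone N by 0.81 (adjusted p = 0.00107). The remaining neighbors did not differ past the threshold. Lines further apart in the order did: E was below H (-0.58, adjusted p = 0.0185) and below N (-0.70, adjusted p = 0.00582), and N was above T (0.52, adjusted p = 0.0486).

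In clone E, Pycr1 stood at 17.9, 11.4, 12.996 and 9.66 CPM in mono-culture and at 63.1, 49.1, 68.9 and 64.996 CPM in coculture. In clone V the mono-culture libraries had 17.5, 15.8, 20.6 and 10.5 CPM and the coculture libraries 46.1, 49.2, 45.5 and 49.001 CPM. In clone H they had 18.01, 25.2, 16.4 and 18.9 CPM, against 27.1, 30.4, 32.5 and 32.2 CPM in coculture. All coculture libraries of these group 1 clones were above all of their mono-culture libraries, with the narrowest gap in clone H. Clone K went from 7.26, 3.31, 6.78 and 6.12 CPM to 9.80, 7.80, 10.4 and 12.3 CPM. Clone M went from 7.06, 5.46, 6.89 and 3.34 CPM to 12.6, 14.6, 19.4 and 15.4 CPM. These were the lines with the lowest Pycr1, and in both the cultures did not overlap. Clone N had 23.8, 12.7, 24.4 and 24.2 CPM in mono-culture, where replicate 2 was far below the others, and 38.6, 33.03, 34.3 and 40.2 CPM in coculture. Clone T had 18.1, 16.4, 16.03 and 8.84 CPM and then 35.2, 43.5, 40.8 and 30.2 CPM. KPC1 had 40.3, 43.9, 38.9 and 26.1 CPM and then 48.2, 43.4, 36.4 and 46.8 CPM, the only line in which the cultures overlapped. The 2 cultures did not overlap for 45.5% of all genes in clone E, 36.3% in H, 48.6% in V, 19.3% in K, 38.4% in M, 22.4% in N, 48% in T and 23.6% in KPC1.

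The Pycr1 response was largest in clone E, at 2.23 ± 0.21 (SE, adjusted p = 4.11e-12), followed by clone V at 1.56 ± 0.21 (SE, adjusted p = 1.9e-08). It was 1.44 in clone M and 1.33 in clone T, and lay between 0.64 and 0.78 in clones H, K and N. In KPC1, which had the highest mono-culture level, it was 0.23 ± 0.20 (SE, adjusted p = 0.409) and did not pass. The response differed between the lines (adjusted p = 1.94e-06, edgeR quasi-likelihood F-test of the interaction), as it did for 71.3% of all genes. In coculture the order of the lines was K, M, H, N, T, KPC1, V and E, with clone E highest at 61.5 ± 8.66 CPM (SD, n = 4).

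Aldh18a1, the entry enzyme of the pathway, was the most abundant member of the list by level per length in coculture, with a median over the lines of 77.8 RPKM (reads scaled for gene length and depth), against 39.1 for Odc1, 16.9 for Oat, 12.7 for Asl, 8.68 for Pycr1 and 2.18 for Prodh. Its mono-culture level spanned 11.6-fold, from 30.5 CPM in clone M to 355 CPM in KPC1 (adjusted p = 6.96e-18 for the difference between lines). Of the neighbors in the order M, K, E, V, T, H, N and KPC1, those between E and H did not differ past the threshold, while M and K, K and E, H and N, and N and KPC1 did, with differences of 0.67 to 0.85 on the log2 scale and adjusted p between 0.00393 and 0.0195. The position of clone M at the bottom and KPC1 at the top was therefore the same as for Pycr1.

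In the group 1 clones, Aldh18a1 moved from 116, 79.2, 98.5 and 55.4 CPM to 349.98, 277, 369 and 278 CPM in clone E. Clone H moved from 121, 142, 117 and 114 CPM to 269, 319, 318 and 219.8 CPM, and clone V from 112, 97.6, 118 and 56.3 CPM to 347, 437, 435 and 338 CPM. None of these cultures overlapped. Clone K moved from 69.1, 40.4, 66.8 and 43.7 CPM to 105, 72.9, 96.4 and 103 CPM, and clone M from 36.1, 30.8, 39.8 and 15.4 CPM to 68.01, 85.1, 118 and 84.9 CPM. Clone N moved from 228, 133, 242 and 202 CPM to 334, 351, 388 and 325 CPM, and clone T from 128, 119.97, 137 and 48.5 CPM to 330.02, 457, 389.6 and 291 CPM. The group 2 clones also showed no overlap, from a wide range of starting levels. KPC1 moved from 427, 465, 301 and 226 CPM to 570.01, 509, 541 and 448 CPM, and only here did the cultures overlap.

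The Aldh18a1 response was called in every line. It was largest in clone V, at 2.02 ± 0.25 (SE, adjusted p = 2.72e-09), and was 1.86 in clone E, 1.76 in clone T, 1.54 in clone M and 1.19 in clone H. Clones N and K, at 0.80 and 0.78, and KPC1, at 0.54 ± 0.24 (SE, adjusted p = 0.0806), changed least, and the difference between lines passed (adjusted p = 0.000398). The call in KPC1 was lost without mono-culture replicate 3 or 4 or coculture replicate 1, 2 or 3, with adjusted p between 0.127 and 0.34. Replicate 4 was the lowest of the 4 mono-culture libraries for Aldh18a1 in 6 of 8 lines and for Pycr1 in 5; with replicate 4 left out of the sums, the rise over the lines was 1.22 for Aldh18a1 and 1.01 for Pycr1, and both still passed.

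**Figure D2:**
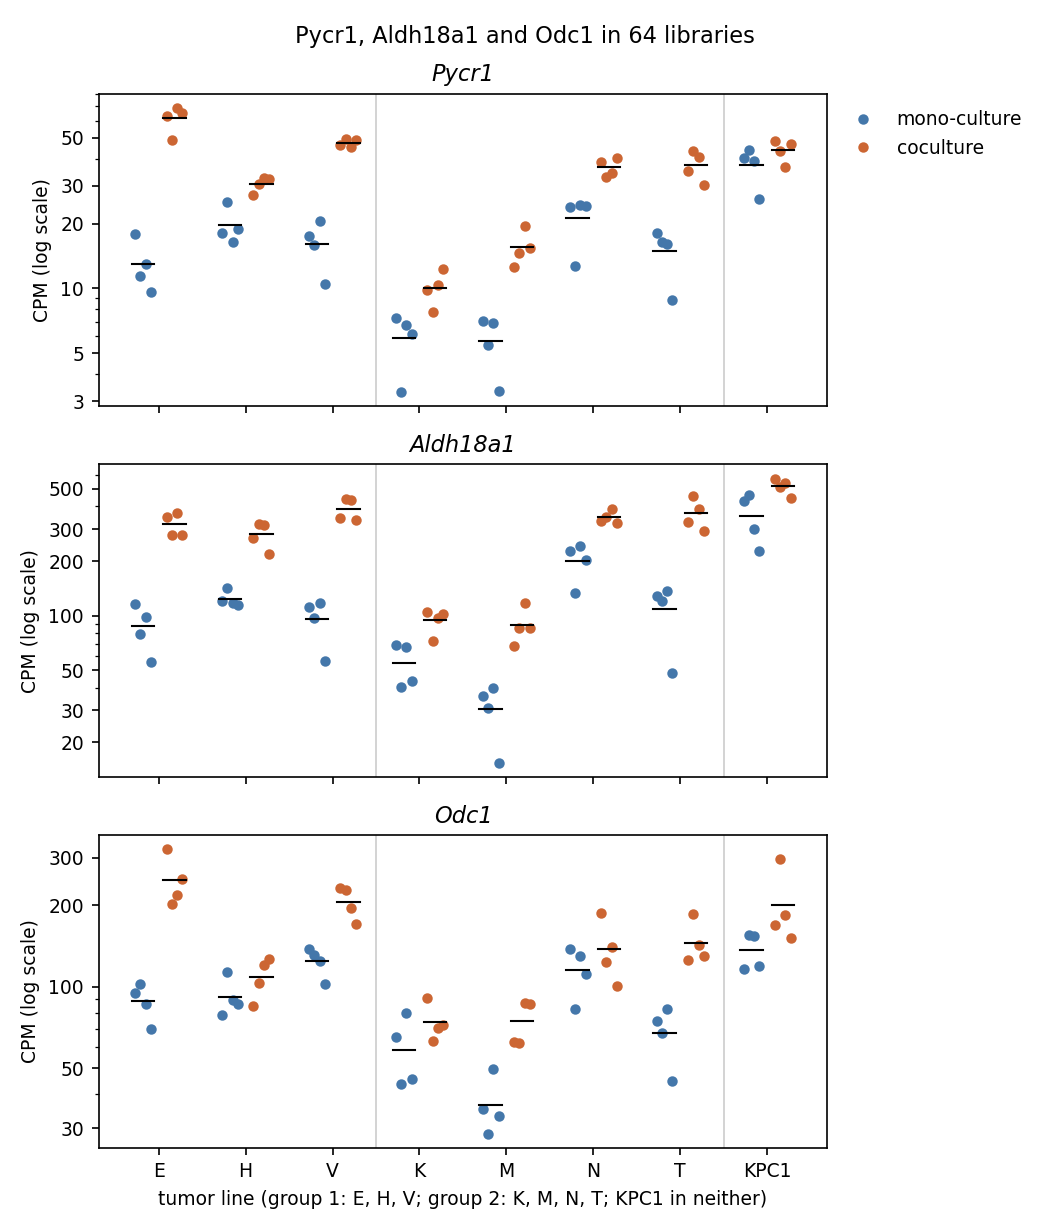
Level in CPM (vertical axis, log scale) of Pycr1, Aldh18a1 and Odc1 in each of the 64 libraries by tumor line; points are libraries, 4 per culture, and black bars are their means. For Pycr1 and Aldh18a1 the coculture libraries lie above the mono-culture libraries without overlap in 7 of 8 lines, and for Odc1 in 4.

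Prodh, which oxidizes proline, ordered the lines differently from Pycr1 and Aldh18a1. Line means of Prodh were below those of both in either culture, except in mono-cultured clone M. There Pycr1 averaged 5.69 CPM, below the 13.8 CPM of Prodh. Its mono-culture means ran from 2.84 CPM in clone V to 13.8 CPM in clone M, a 4.87-fold range, in the order V, K, E, H, KPC1, T, N and M (adjusted p = 6.37e-15 for the difference between lines). Clone M, lowest for Pycr1 and Aldh18a1, was thus highest for Prodh, and only V and K, by 0.80, and KPC1 and T, by 0.47, differed among neighbors. Clone V had 3.19, 3.23, 2.62 and 2.32 CPM and clone M had 13.5, 11.1, 16.7 and 14.04 CPM in mono-culture, with no overlap between them. In coculture Prodh rose in clone E, from 5.69, 3.80, 5.42 and 6.07 CPM to 9.61, 6.99, 9.78 and 6.31 CPM, a change of 0.63 ± 0.21 (SE, adjusted p = 0.00768). It also rose in clone T, by 0.48 ± 0.19 (SE, adjusted p = 0.0308), a call that was lost without mono-culture replicate 4 (adjusted p = 0.181). Its cultures overlapped in every line but E and H. In clone N the change of 0.29 ± 0.19 (adjusted p = 0.258) passed with the replicate number as a block (adjusted p = 0.037). Deviations of same-numbered libraries correlated at 0.230 to 0.291 in clone N, but the labels do not state a pairing. In clone M the change was -0.11 ± 0.19, the only negative value, and the responses did not differ past the threshold between lines (adjusted p = 0.288). That difference passed without replicate 4 (adjusted p = 0.0505) and with the replicate number as a block (0.00442). The block also brought Prodh past the threshold in clones K (0.44, adjusted p = 0.0092), H (0.0512) and V (0.0625). In clone K the libraries went from 4.15, 4.69, 4.70 and 6.40 CPM to 6.20, 6.47, 6.55 and 7.55 CPM, higher in coculture for each replicate number, and the change of 0.43 ± 0.21 (adjusted p = 0.172) also passed without mono-culture replicate 4 (0.0869). In clone N it passed as well without mono-culture replicate 1 (0.0878).

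Oat, the link between ornithine and proline, was the least variable of the 7 enzymes tested. Its mono-culture means lay between 30.9 CPM in clone K and 62.4 CPM in clone E, a 2.02-fold range, in the order K, V, H, T, KPC1, M, N and E, in which only K and V and KPC1 and M differed as neighbors. The difference between lines passed (adjusted p = 2.97e-14), as it did for 95.1% of all genes. Clone K rose in coculture from 31.4, 29.98, 29.1 and 33.2 CPM to 37.8, 34.7, 35.5 and 40.5 CPM, by 0.26 ± 0.10 (SE, adjusted p = 0.0733), and clone T fell, by a log2 change of -0.20 ± 0.10 (SE, adjusted p = 0.0955). Clone E moved from 67.7, 57.5, 60.3 and 64.05 CPM to 56.03, 53.9, 55.2 and 53.6 CPM, with no overlap, but at -0.19 ± 0.10 missed the threshold (adjusted p = 0.101). It passed with DESeq2 (0.0638), RLE size factors (0.0732), the replicate block (0.0833) and the series covariate (0.0948), and without mono-culture replicate 2 (0.0705) or coculture replicate 3 (0.0868). The call in clone K was lost without mono-culture replicate 1, 2 or 3 or coculture replicate 1 or 4 (adjusted p up to 0.222), and that in clone T without mono-culture replicate 2 or 3 or coculture replicate 1, 2 or 3 (up to 0.389). The call in clone K was also lost with the series covariate (0.141). Both calls were lost without the filter on low counts (0.184 in K and 0.258 in T). The difference in response between lines (adjusted p = 0.0406) was lost without replicate 1 or 3 (0.145 and 0.234).

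Asl, argininosuccinate lyase, was expressed throughout, at 35.8 CPM in clone K and 49.7 to 73.6 CPM in the other lines in mono-culture (adjusted p = 1.07e-11 for the difference between lines). Among neighbors in the order K, N, E, V, M, T, H and KPC1, N was above K by 0.47 and V above E by 0.26, and the others did not differ past the threshold. In coculture the lines went different ways. Clone E rose from 51.2, 56.1, 46.9 and 55.6 CPM to 71.6, 82.02, 61.7 and 73.5 CPM, by 0.46 ± 0.11 (SE, adjusted p = 0.000625). Clone V rose from 65.3, 61.1, 65.7 and 59.2 CPM to 102, 81.5, 67.4 and 75.002 CPM, by 0.38 ± 0.11 (SE, adjusted p = 0.00462). Both showed no overlap between the cultures, as did clones K and N. Clone N rose by 0.27 ± 0.12 (adjusted p = 0.0678), while KPC1 fell by a log2 change of -0.29 ± 0.11 (SE, adjusted p = 0.0501), from 85.3, 69.6, 60.6 and 79.005 CPM to 59.1, 43.7, 63.2 and 74.98 CPM, which overlap. The response differed between lines (adjusted p = 0.000474). The call in clone N was lost without mono-culture replicate 1 or 2 or coculture replicate 4 (adjusted p up to 0.216), and that in KPC1 without mono-culture replicate 1 or coculture replicate 2 (0.199 and 0.231). The call in KPC1 was also lost with the series covariate (0.11).

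**Figure D3:**
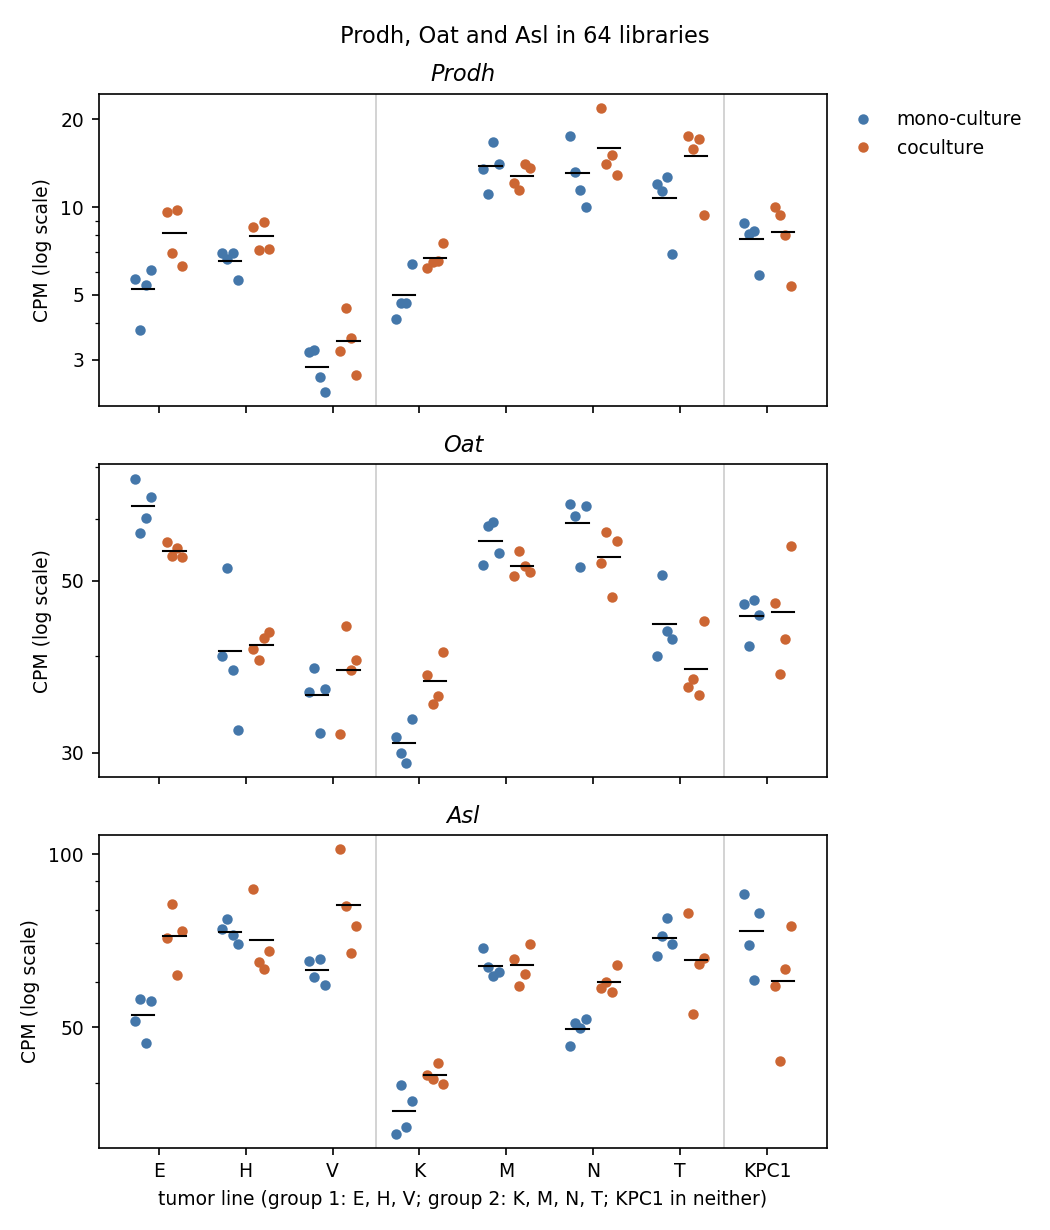
Level in CPM (vertical axis, log scale) of Prodh, Oat and Asl in each of the 64 libraries by tumor line; points are libraries, 4 per culture, and black bars are their means. Prodh is highest in clones M, N and T, and Oat and Asl overlap between the cultures in 6 and 4 of the 8 lines.

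Ass1, the enzyme before Asl in the cycle, was close to silent in mono-culture. Clone E had no Ass1 count in any of its 4 mono-culture libraries, which allows up to 0.0432 CPM at 3 counts over the summed libraries. Clone N had 0, 1, 1 and 0 counts, KPC1 had 0, 0, 1 and 0, clone T had 2, 1, 2 and 1, clone K had 3, 0, 2 and 0 and clone M had 1, 3, 0 and 2. Clones H and V stood apart, with 5, 15, 2 and 16 counts in H and 7, 23, 6 and 8 in V. At 0.606 and 0.675 CPM over the summed libraries, their levels were above those of the other lines, of which the highest was clone M with 0.0925 CPM, and the difference between lines passed (adjusted p = 5.06e-08). V exceeded M, its neighbor in the order, with an adjusted p of 0.00136, whereas H and V did not differ past the threshold (0.966).

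In coculture every line had Ass1 counts. They were 7, 7, 15 and 14 in clone E, 19, 22, 33 and 43 in clone H, 5, 8, 20 and 26 in clone V and 3, 14, 39 and 32 in clone K. They were 9, 12, 24 and 19 in clone M, 10, 18, 22 and 13 in clone N, 27, 25, 33 and 33 in clone T and 24, 11, 31 and 25 in KPC1. The cultures overlapped in CPM only in clones H and V. Taken over summed libraries, the level in clone E was at least 16.9-fold higher in coculture, against the floor of 3 counts. It was 17.1-fold higher in clone K (95% interval 7.05 to 53.9, exact binomial), 12.6-fold in clone M (5.49 to 35.6) and 22.1-fold in clone T (9.86 to 61.4). From 2 and 1 counts, the ratio was 26.4 in clone N (7.004 to 223) and 104 in KPC1 (18.3 to 4164). It was 2.76-fold in clone H (1.90 to 4.10) and 1.39 in clone V (0.924 to 2.10), where the interval includes 1. These intervals cover counting error only. The response was called in every line except V (adjusted p = 0.456) and differed between lines (1.02e-05), and the call in clone H was lost without mono-culture replicate 3 (adjusted p = 0.129).

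Low Ass1 in coculture went with low fibroblast markers. In 8 of 8 lines the coculture library with the least Ass1 was also the one with the lowest summed level of the 12 fibroblast markers, as it was for 0.226% of all 14134 genes, compared with 2 lines for Pycr1, 1 for Aldh18a1 and 1 for Odc1. That library was replicate 1 in 6 lines and replicate 2 in the other 2, so the match also follows replicate number and the lines are not separate instances of it. In clone K, for example, the libraries with 0.200, 0.975, 2.55 and 1.98 CPM of Ass1 had 613, 816, 1692 and 1942 CPM of fibroblast markers. In clone V the libraries with 0.334, 0.540, 1.21 and 1.47 CPM of Ass1 had 229, 693, 668 and 1398 CPM. At the upper end the order did not hold in every line: the library with the most markers also had the most Ass1 in clones E, H, M and V, but not in K, N, T or KPC1. In clone N, 1746 CPM of markers went with 1.02 CPM of Ass1 and 1515 CPM with 1.26 CPM, and in clone T, 1296 CPM went with 1.76 CPM and 796 CPM with 2.03 CPM. Ass1 was also scarcer in the deposited RPKM table than in the counts: its CPM divided by its RPKM corresponded to a median length of 13824 bases over the 11 groups above 0, against 2414 exonic bases. For Pycr1, Aldh18a1, Oat, Asl and Odc1 the lengths were 1.05 to 1.09 times the exonic bases, and for Prodh 0.489 times. The cause of these departures for Ass1 and Prodh was not tested. The 2 tables thus differed for Ass1, and on RPKM with limma the difference in response between lines was lost (adjusted p = 0.143 with a pseudocount of 0.1 and 0.321 with 1). With a pseudocount of 1, the difference between lines in mono-culture was lost as well (0.265). So were the responses in clones E (0.196), H (0.504) and N (0.269), and that in H was also lost with 0.1 (0.283). The calls in clones K, M and T and in KPC1 were kept with both.

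Arg2, the mitochondrial arginase, was at 0 to 13 counts in every library and its values, the fitted ones included, carry the uncertainty from the overlap with Vti1b. Summed over 4 libraries it had 7 to 14 counts in mono-culture and 2 to 36 in coculture, the highest in clone E and the lowest in clone V. The ratio of coculture to mono-culture was 3.04 in clone E (95% interval 1.60 to 6.10, exact binomial) and 0.259 in clone V (0.0268 to 1.30). Clones M, at 2.18 (1.07 to 4.67), and KPC1, at 2.87 (1.21 to 7.52), also had intervals above 1. The remaining intervals included 1, and Arg2 over the 8 lines did not pass, although it did without clone V (0.85 on the log2 scale, adjusted p = 0.0236) and without replicate 2 or 4 (0.79 and 0.75, adjusted p = 0.0774 and 0.0824). Arg2 also passed over the lines with limma on log2(RPKM + 1) and log2(RPKM + 0.1) (adjusted p = 0.0604 and 0.0483).

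**Figure D4:**
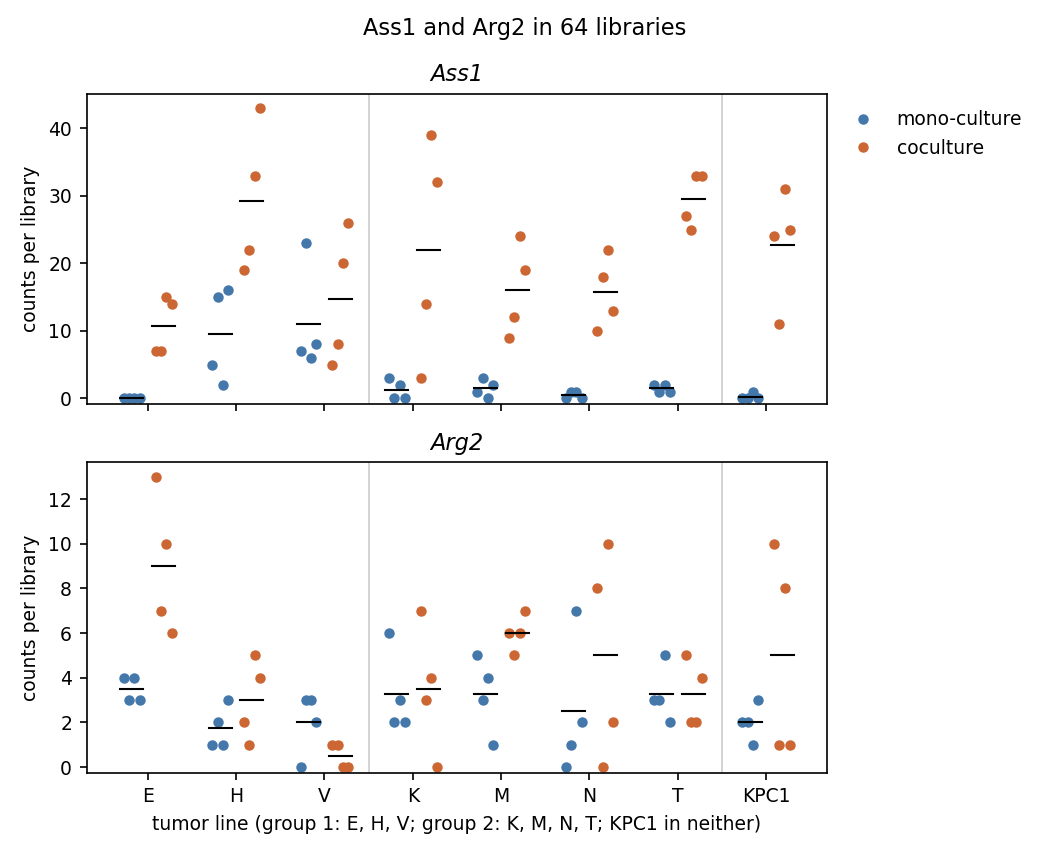
Counts per library (vertical axis) of Ass1 and Arg2 in the 64 libraries by tumor line; points are libraries, 4 per culture, and black bars are their means. Ass1 is at 0 to 3 counts in the mono-culture libraries of clones E, K, M, N and T and of KPC1 and at 2 to 23 in clones H and V, and Arg2 does not exceed 13.

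Odc1, the entry to the polyamines, followed Pycr1 and Aldh18a1. Its mono-culture means ran from 36.7 CPM in clone M to 136 CPM in KPC1, 3.71-fold, in the order M, K, T, E, H, N, V and KPC1 (adjusted p = 1.92e-11 for the difference between lines). Only M and K, by 0.68, differed as neighbors. Clone E had the largest response, from 95.1, 102, 86.3 and 69.9 CPM to 321, 202, 217 and 251 CPM. Clone M went from 35.3, 28.7, 49.5 and 33.2 CPM to 62.7, 61.9, 87.2 and 86.3 CPM, clone T from 74.6, 67.4, 82.8 and 44.7 CPM to 125, 185, 142 and 129.99 CPM and clone V from 137, 131, 125 and 103 CPM to 231, 228, 195 and 171 CPM. In these 4 clones the cultures did not overlap. In clone H the libraries went from 78.9, 113, 89.04 and 86.2 CPM to 84.7, 103, 120.2 and 126 CPM and in clone K from 65.2, 43.9, 79.8 and 45.5 CPM to 90.6, 63.3, 70.4 and 72.004 CPM. Clone N went from 138, 82.98, 130.02 and 111 CPM to 187, 124, 139.6 and 100.4 CPM and KPC1 from 116, 156, 154 and 119 CPM to 169, 297, 184 and 151 CPM. In these lines they overlapped.

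Odc1 rose by 1.49 ± 0.21 (SE, adjusted p = 3.24e-08) in clone E and by 1.11, 1.02 and 0.73 on the log2 scale in clones T, M and V. KPC1 passed at 0.56 ± 0.20 (SE, adjusted p = 0.0308), and this call was lost without mono-culture replicate 4 or coculture replicate 2 (adjusted p = 0.12 and 0.363). Clones H, K and N, at 0.24, 0.34 and 0.25, did not pass. The responses differed between lines (adjusted p = 0.00065), and clones E, V, M and T, which had the larger Odc1 responses, were also the 4 lines with the larger responses of Pycr1 and Aldh18a1.

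Over the 16 means of line and culture, Pycr1 and Aldh18a1 had a Pearson r of log2 CPM of 0.954, Pycr1 and Odc1 of 0.935 and Aldh18a1 and Odc1 of 0.901. Over the 8 mono-culture means alone these values were 0.956, 0.882 and 0.874. The r of Prodh was 0.0577 with Pycr1 and 0.0826 with Aldh18a1, and that of Oat was 0.114 and 0.00406, whereas Prodh and Oat had an r of 0.521 and Asl and Pycr1 of 0.606. Neighboring means share a line, and all share the libraries' scaling, so these values describe the 16 means and carry no test. Of 12036 genes with at least 1 CPM, those nearest to Pycr1 over the 16 means were Dkc1, a component of the ribosomal RNA pseudouridylation complex (0.987), and Cenpi, a centromere protein (0.978). Nearest to Aldh18a1 were Uchl3, a ubiquitin hydrolase (0.985), and Nol9, a nucleolar kinase of ribosomal RNA processing (0.983). Nearest to Odc1 were Cycs, cytochrome c (0.980), and Brix1, a ribosome assembly factor (0.978). The nearest genes of the remaining members were less close: Acox2 and Tap2 for Prodh (0.896 and 0.875), Gpr155 and Ict1 for Oat (0.881 and 0.870) and Asb3 and Letmd1 for Asl (0.910 and 0.896).

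Between the metabolic groups, no enzyme tested passed, and few genes did: 0% of the 14829 genes in mono-culture, 0.00679% in coculture and 0.00689% for the difference in response. In this comparison, of 3 clones against 4 on summed libraries with edgeR, 1 of 7 enzymes tested in mono-culture, Prodh, had an unadjusted p under 0.05, none of 8 did in coculture or in the difference in response, and DESeq2 called none in any of them. The enzyme left untested in mono-culture was Ass1, which did not pass the filter on low counts there, whereas Arg2 was tested. Mono-culture Prodh averaged 4.94 ± 1.88 CPM over the group 1 clones (SD, n = 3), against 10.6 ± 3.98 CPM over those of group 2 (SD, n = 4). The difference was -1.10 ± 0.45 on the log2 scale (SE, adjusted p = 0.888), the clones overlapped, and an exact permutation test (two-sided, 35 partings of the 7 clones) gave p = 0.114. Mono-culture Ass1 averaged 0.427 ± 0.371 CPM over group 1 (SD, n = 3) against 0.0756 ± 0.0254 CPM over group 2 (SD, n = 4). Its clones overlapped, and the exact permutation test gave p = 0.314. In coculture, Pycr1 averaged 46.6 ± 14.9 CPM over group 1 (SD, n = 3) against 24.8 ± 14.1 CPM over group 2 (SD, n = 4), a difference of 0.92 ± 0.48 (adjusted p = 0.597). Odc1 averaged 188 ± 69.7 CPM (SD, n = 3) against 108 ± 39.7 CPM (SD, n = 4), and for both genes the exact permutation test gave p = 0.171. Asl in coculture was the one enzyme whose clones did not overlap, at 71.3 to 82.2 CPM in group 1 and 41.1 to 65.3 CPM in group 2, as was seen for 9% of all genes in coculture and 5.35% in mono-culture; its exact permutation p was 0.0857. The difference in the Ass1 response between the groups passed only when clone E was left out (-3.17, adjusted p = 0.0959), of the clones and replicates left out in turn. Within group 2, clones K and M lay far below N and T for Pycr1 and Aldh18a1 in both cultures.

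Around these enzymes, 57 other genes of proline, arginine and polyamine metabolism were listed, and 46 could be tested over the 8 lines. Of these 46, 18 rose, 10 fell and 18 did not pass, with a median log2 change of 0.16, where 27.2% of all genes tested rose and 27.4% fell. In the proline list, 3 of 13 tested rose, a share near that of all genes, and 7 fell. Pycrl, another pyrroline carboxylate reductase, did not follow Pycr1: its coculture sums were lower in every line but E and K. It stood at 24.3 against 33.1 CPM in mono-culture in clone V, at 28.6 against 27.9 CPM in E and at 21.8 against 20.2 CPM in K. Aldh4a1, which completes proline degradation to glutamate, fell by 0.93 on the log2 scale (adjusted p = 0.00329). P4ha3, a collagen prolyl hydroxylase, fell by 1.28, Glul, glutamine synthetase, by 0.76 and Slc36a1, a proton-coupled amino acid carrier, by 0.71. P4ha1, of the same enzyme family, went the other way, with a higher level in the coculture sum of every line. In coculture P4ha1 stood at 114 to 239 CPM, against 5.37 to 26.2 CPM for P4ha3. In the arginine list, 5 of 14 rose and 1 fell. Slc7a2, a cationic amino acid carrier, rose by 1.25 ± 0.27, Ddah1, which clears methylated arginine, by 1.07 ± 0.23 and Gatm, the first step of creatine synthesis, by 0.96 ± 0.21. Slc7a2 was low outside clone V and KPC1, with 1 to 36 counts in any sum of the other lines. In V it went from 299 to 747 counts and in KPC1 from 224 to 321. Gatm had at most 0.766 CPM in the mono-culture sums, and went from 1 to 4 counts in clone E. In the polyamine list, 10 of 19 rose and 2 fell, against the same 27.2% and 27.4% of all genes. Srm, spermidine synthase, the step after Odc1, rose by 0.77 ± 0.11 (adjusted p = 0.00142), Sms, spermine synthase, rose by 0.72 ± 0.13 (adjusted p = 0.00317), and Slc18b1, a vesicular polyamine carrier, fell by 0.84 on the log2 scale (adjusted p = 0.00839). Prodh2, Otc, Nags, Agmat, Nos1 and Slc6a20a had at most 3 counts in any library.

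**Figure D5:**
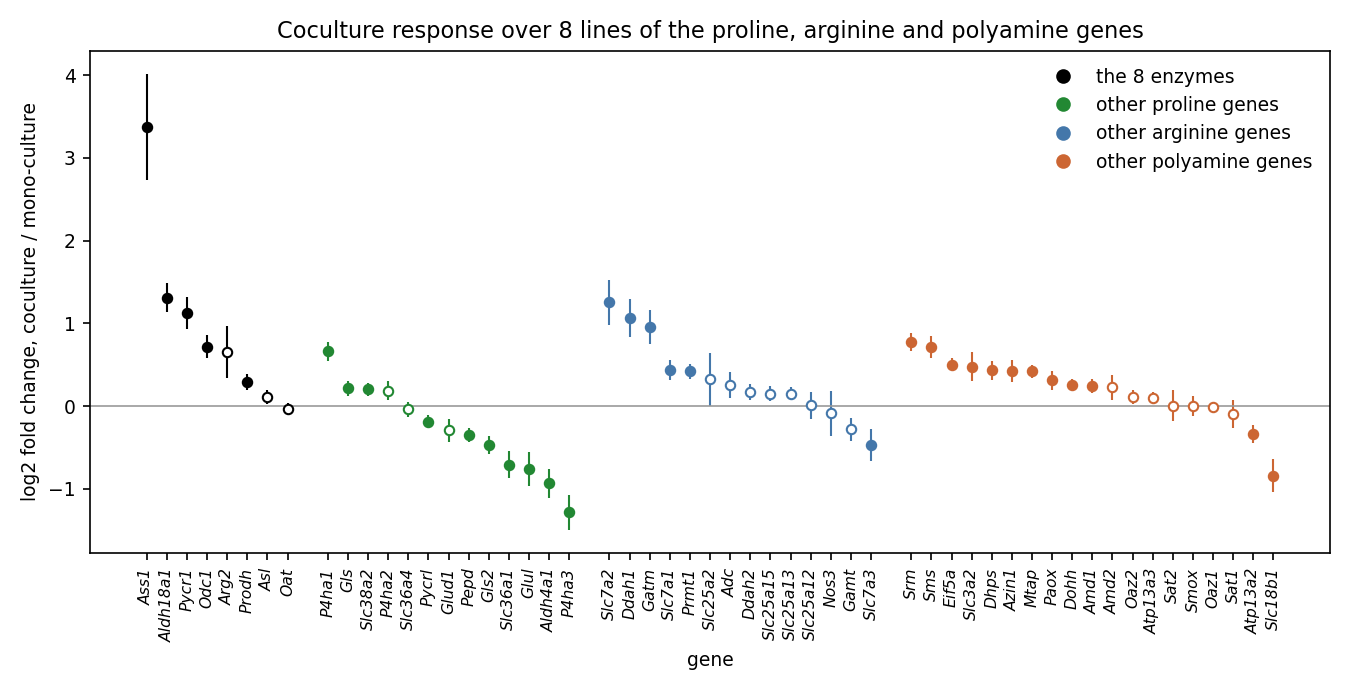
Log2 fold change between coculture and mono-culture over the 8 lines (vertical axis) of the 8 enzymes and of the 46 other proline, arginine and polyamine genes tested, from edgeR on 16 summed samples; bars are SE and filled points have an adjusted p under 0.1. The polyamine genes called are mostly above 0 (10 of 12), and the proline genes called are mostly below it (7 of 10).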

How the data were processed

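The authors deposited a table of counts per gene for 64 libraries, made with featureCounts against mm10 per the submitters' processing notes, which also name edgeR; the aligner, the annotation and the strand setting are not given in the sources used here. The authors also deposited a table of RPKM for the same libraries, which was normalized separately and served for levels per length and as an alternative. No other columns of sample values were present (0 unused). Counts were tested with edgeR 4.0.16 in R 4.3.3 (TMM scaling, filterByExpr, quasi-likelihood tests, Benjamini-Hochberg adjustment, threshold 0.1), either on the 64 libraries in 16 groups or on sums of 4 libraries, where the line is the replicate. The group 1 and group 2 clones were also set against each other with an exact permutation test (two-sided, 35 partings) on log2(CPM + 0.05). Count ratios carry 95% exact binomial intervals, and the floor is 3 counts per sum; both cover counting error only. Scripts were tested on simulated data.

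The alternatives were DESeq2 1.42.0, RLE size factors, no filter on low counts, an adjusted p under 0.05, limma 3.58.1 on log2(RPKM + 1) and log2(RPKM + 0.1), a replicate block, the series of sample numbers as a covariate, single libraries in place of sums, and leaving out each library, replicate number or line. The first series held 43 libraries and was unequal between the cultures in some lines. It held 0 mono-culture and 2 coculture libraries in clone K, 1 and 3 in KPC1, 4 and 2 in clone V and 4 and 3 in clone N. In the remaining lines it held as many of each culture. The named genes were the 8 enzymes, up to 5 other pathway genes in each direction with the largest called change over the lines, those at or under the floor in every library, the cell type markers and, for each enzyme, the 2 genes of highest Pearson r. Pycrl and P4ha1 were named in addition, as relatives of Pycr1 and P4ha3. Some items are not reported here. The enzymes and lists were chosen with earlier results of these data known. Whether replicate numbers pair the libraries was checked by the correlation of same-numbered deviations from the group means: all 4 pairs were over 0.1 only in clone N (0.230 to 0.291), and 18 of 32 pairs were overall. Further steps used Python 3.11.15 with pandas 2.3.3, numpy 2.4.6, scipy 1.17.1 and matplotlib 3.10.9.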

Additional observations from a re-analysis of the deposited data

Results flagged for a closer look

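In mono-cultured clone N, Pycr1 stood at 12.7 CPM in replicate 2, against 23.8 to 24.4 CPM in the other libraries, a gap of 0.948 of the whole range. In mono-cultured KPC1, Ass1 stood at 0.0570 CPM in replicate 3, which is 1 count, against 0 in the others. These were 2 of 128 groups of 4 libraries examined, where chance alone flags about 1 in 20.

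The response to coculture differed between the 8 lines, by the edgeR quasi-likelihood F-test of the interaction, for 6 of the 7 enzymes tested. The adjusted p was 1.94e-06 for Pycr1, 0.000398 for Aldh18a1, 0.0406 for Oat, 1.02e-05 for Ass1, 0.000474 for Asl and 0.00065 for Odc1. The same test passed for 71.3% of all genes.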

How the results depend on the processing

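Of 1586 recomputed comparisons of the 8 enzymes, 1452 kept their direction and side of the threshold, 51 lost a call, 37 gained one and 46 changed sign, none of these called in either setting. The count of genes that differed between group 1 and group 2 in mono-culture went from 0 to 1 without the filter, 117 with DESeq2, 3925 with 28 libraries as separate replicates and 3619 with a replicate block added. In coculture it went from 1 to 193, 5148 and 4932 under the last 3 settings, and for the difference in response from 1 to 0 at an adjusted p under 0.05, 3 without the filter and 182 with DESeq2. With single libraries as replicates, the spread between clones is not measured. Leaving out single libraries gave 7909 to 8594 genes called in clone E, 5181 to 6505 in H, 8074 to 8425 in V, 2149 to 2930 in K, 4266 to 5517 in M, 4076 to 5533 in N, 8121 to 8779 in T and 4088 to 5411 in KPC1. Leaving out a replicate number or line gave 13104 to 13189 for lines in mono-culture, 8136 to 8622 for the response between lines, 6735 to 8069 over the lines, and for the groups 0 to 217 in mono-culture, 0 to 19 in coculture and 0 to 34 for the response.

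Oat in KPC1 changed sign to -0.022 with the series covariate and to -0.044 and -0.047 on RPKM with a pseudocount of 1 and 0.1. Oat between the groups in coculture went to -0.0031 with RLE or DESeq2 and to -0.020 with 28 libraries and -0.019 with the replicate block added, and Arg2 in the response between groups to -0.0023 with RLE and -0.0083 without the filter; the cause was not tested. Leave-one-out values also crossed 0 for Oat in clone H (-0.068 to 0.17), in KPC1 (-0.13 to 0.060) and between groups in mono-culture (-0.33 to 0.12), in coculture (-0.15 to 0.10) and in response (-0.013 to 0.16). They did so for Asl in clone M (-0.042 to 0.040), for Prodh in clone M (-0.20 to 0.0012), in KPC1 (-0.068 to 0.21) and in the group response (-0.012 to 0.18), and for Aldh18a1 between groups in mono-culture (-0.23 to 0.68), Odc1 in the group response (-0.17 to 0.41) and Arg2 between groups in coculture (-1.52 to 0.39) and in response (-0.84 to 0.67). The replicate block changed 7 of 70 calls of the enzymes, all gained: Prodh in H, V, K and N and in its difference in response between lines, Odc1 in K and Oat in E; 24 of 32 mono-culture libraries correlated best with the coculture library of their own number, a hint of pairing from the data and not the design, and outside clone N not every pair was over 0.1. Slc7a2 lost its call on log2(RPKM + 1) (adjusted p = 0.166). Counts of a few reads limit Ass1 and Arg2, and in some lines Slc7a2 and Gatm.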
